A study of Mus musculus with 11 samples.

Results

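Expression of 10 genes of the interleukin 6 (IL-6) family and its STAT3 pathway was examined in the skin and small intestine (SI) of mice with imiquimod (IMQ)-induced dermatitis. The genes were chosen by symbol from the 45777 genes of the expression table and comprise the ligands *Il6*, *Osm*, *Lif* and *Il11*, the receptor chains *Il6ra*, *Osmr*, *Lifr* and *Il6st*, the transcription factor *Stat3* and the feedback inhibitor *Socs3*. All 10 had counts in the table. IMQ is a ligand of Toll-like receptor 7. BALB/c mice aged 8 to 10 weeks were shaved and received 62.5 mg of cream a day on the back and the right ear for 5 to 8 days. The IMQ group received Aldara, a cream with 5% IMQ, and the control group received Vaseline, so the effects of IMQ and of the Aldara base cannot be told apart. RNA was sequenced from whole tissue of 3 control and 3 IMQ libraries of skin and of 3 control and 2 IMQ libraries of SI, and the sources used here do not state which libraries share a mouse.

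Cytokines of this family signal through a shared chain. IL-6 and IL-11 bind their own receptor chains and then engage gp130, the product of *Il6st*, whereas oncostatin M, encoded by *Osm*, and leukemia inhibitory factor, encoded by *Lif*, bring gp130 together with the OSM receptor (*Osmr*) or the LIF receptor (*Lifr*). Janus kinases bound to these receptors phosphorylate STAT3, which enters the nucleus and activates genes that include *Socs3*, and SOCS3 in turn blocks gp130. In skin, IL-6 and oncostatin M act on keratinocytes and STAT3 is active in psoriatic epidermis, and in the intestine gp130 signaling is known for epithelial repair and the acute phase response.

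The *Socs3* promoter was printed because *Socs3* was the only one of the members with the STAT motif TTCNNNGAA in the window from 250 bases before to 50 bases after its RefSeq start site. *Socs3* lies on the minus strand of chromosome 11 in GRCm38 (mm10), and the 165 bases shown, chr11:117969452-117969616, are read 5′ to 3′ on that strand with the motif in capitals.

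Socs3: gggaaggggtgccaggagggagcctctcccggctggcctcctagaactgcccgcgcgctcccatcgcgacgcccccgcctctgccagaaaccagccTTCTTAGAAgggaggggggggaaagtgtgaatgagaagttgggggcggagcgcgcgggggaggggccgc

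The pattern TTCNNNGAA is the same on both strands. The match began 154 bases before the RefSeq start site and lay 326 bases from the start of the GENCODE coding transcript. The printed bases lie inside the annotated span of *Socs3*, chr11:117966079-117970336, which extends further upstream than this start site. Of 27025 genes with a window, 9.55% held a match, and 1 of the 9 members with a window did. *Osm* had no window. Among a list of 27 genes known as STAT3 targets, 4 of 22 with a window held a match, and the matches of those called below with all libraries, *Icam1* and *Bcl6*, are shown with the 10 bases on either side from the RefSeq GRCm38.p6 windows.

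Icam1: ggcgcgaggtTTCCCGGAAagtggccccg
Bcl6: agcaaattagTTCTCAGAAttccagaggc

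A match describes letters in the window and is not evidence of binding. *Icam1* is on the plus strand of chromosome 9 with the match at chr9:21015898-21015906, and *Bcl6* is on the minus strand of chromosome 16 with 1 of its 4 matches at chr16:23988962-23988970.

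The libraries held between 44995414 and 58526384 counts. *Xist* had 20723 counts or more and *Ddx3y* none in each of the 11. Defining markers of the labeled tissue were present, since keratinocyte markers summed to between 4742 and 13177 FPKM in skin and at most 1.39 in SI. Small intestinal epithelium markers summed to between 10228 and 16474 FPKM in SI. A library stood apart from its group: control skin library 2 had 195 FPKM of 8 small intestinal epithelium markers against 0.154 to 0.163 in the other controls and 0.0755 to 4.95 in IMQ skin, and its hair follicle markers summed to 4.61 FPKM against 485 and 839 in the other controls and 2.51 to 2.80 in IMQ skin. It also held 3150 counts of *Reg3b*, an intestinal lectin gene listed as a STAT3 target, against 0 in the other 2 control libraries. Results in skin are therefore given also without this library where it changes a call.

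The ligands *Il6*, *Osm* and *Lif* and the intracellular genes *Stat3* and *Socs3* were higher in IMQ-treated skin, and the receptor chains were not called. Called means an adjusted p under 0.05 with edgeR's quasi-likelihood test over all genes tested. Of 10 members tested, 5 were called, all higher, whereas 4.05% of the 20512 genes tested in skin were called higher and 6.74% were called in either direction. The groups did not overlap, with IMQ higher, for 6 members, which held for 15.1% of all genes. Without control library 2, 6 members were called, with *Osmr* added, and in that fit 2521 of 20752 genes tested were called. With any 1 library left out the count of members ran from 2, without IMQ library 5, to 6. Without IMQ library 5, 258 of 20743 genes tested were called. The count of members was 3 without control library 1, where 325 of 20720 genes were called. The median log2 fold change of the members was 0.90, and the median of all genes was -0.01.

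*Il6*, which encodes IL-6, had 24, 23 and 13 counts in control skin and 71, 137 and 84 in IMQ skin. Its FPKM, a level per transcript length and library size, was 0.351, 0.392 and 0.178 in controls and 1.18, 2.24 and 1.45 after IMQ. Every IMQ library lay above every control library. The log2 fold change was 2.41 ± 0.40 (SE; adjusted p = 0.0200 with edgeR), a 5.30-fold rise with a 95% confidence interval of 2.77 to 10.2. The call was lost without control library 1 and without IMQ library 5, where the adjusted p reached at most 0.0810.

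*Osm*, a product of activated macrophages, neutrophils and T cells, was at 0.481, 0.250 and 0.351 FPKM in control skin and at 1.32, 2.61 and 2.12 FPKM after IMQ. The groups were far apart. The rise was 5.65-fold, a log2 fold change of 2.50 ± 0.35 (SE; adjusted p = 0.0119, edgeR). Without IMQ library 5 the adjusted p was 0.0552.

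*Lif* was at 0.941, 1.09 and 0.907 FPKM in control skin and at 4.51, 2.75 and 3.98 FPKM after IMQ. The lowest IMQ library was above the highest control. *Lif* rose 3.79-fold, a log2 fold change of 1.92 ± 0.23 (SE; adjusted p = 0.00713, edgeR), and stayed called with any 1 of the 6 libraries left out. *Il11*, a ligand of the same family made by stromal cells, was at 0.367, 0.360 and 0.560 FPKM in controls and at 0.300, 0.383 and 0.395 FPKM after IMQ. Its groups overlapped, and the log2 difference of -0.31 had a 95% confidence interval of -0.98 to 0.35.

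*Socs3* was at 11.3, 12.9 and 9.88 FPKM in control skin and at 29.8, 34.1 and 27.0 FPKM after IMQ. *Socs3* rose 2.86-fold, with a log2 fold change of 1.52 ± 0.19 (SE; adjusted p = 0.00845, edgeR), and was called in all 6 fits that left out 1 library. *Stat3* was at 40.6, 46.6 and 39.0 FPKM in controls and at 64.4, 75.4 and 64.9 FPKM after IMQ. Both genes had groups that did not overlap. The rise of *Stat3* was 1.67-fold, a log2 fold change of 0.74 ± 0.15 (SE; adjusted p = 0.0342, edgeR), and it was called in 1 of 6 fits with a library left out, the one without control library 2, with adjusted p up to 0.147 in the others.

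**Figure D1:**
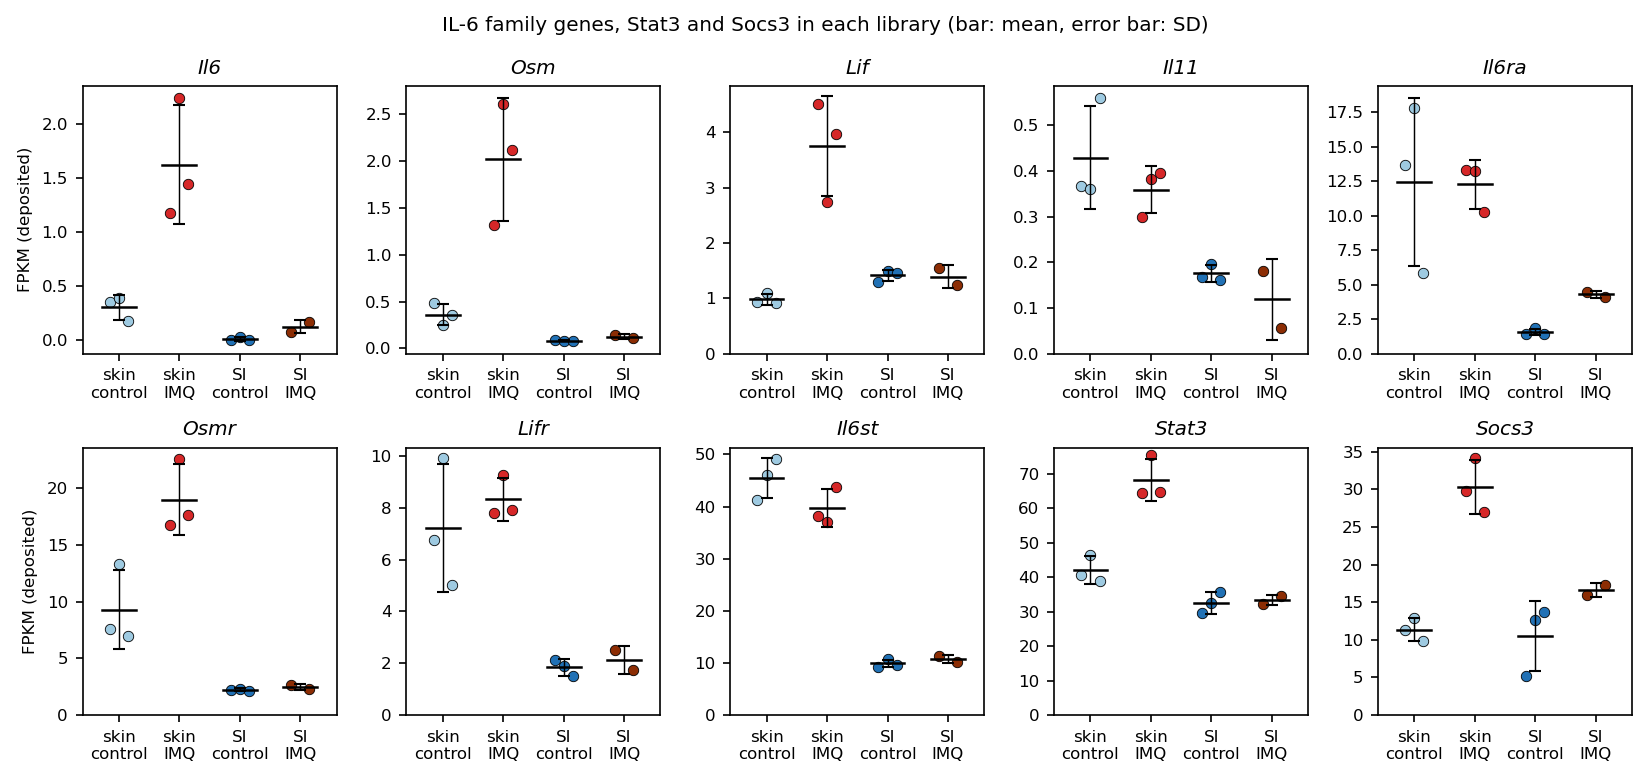
FPKM (vertical axis) of each of the 10 genes in every library of the 4 groups (horizontal axis), with the mean as a bar and the SD as an error bar. In skin the IMQ libraries of *Il6*, *Osm*, *Lif*, *Osmr*, *Stat3* and *Socs3* lie above all controls. In SI the libraries of *Il6ra* separate at 1.41 to 1.85 against 4.10 and 4.49. Those of *Il6*, *Osm* and *Socs3* in SI also separate, with IMQ higher, but these genes were not called there.

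*Osmr* encodes the chain that oncostatin M brings together with gp130. Its level was 7.57, 13.3 and 6.98 FPKM in control skin and 16.8, 22.6 and 17.6 FPKM after IMQ. Control library 2 was the highest of the controls. The log2 fold change was 1.05 ± 0.29 (SE; adjusted p = 0.0823, edgeR) and was not called. Without control library 2 it was 1.45 with an adjusted p of 0.00746.

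*Il6ra*, the chain that binds IL-6, was at 13.7, 17.8 and 5.86 FPKM in control skin and at 13.3, 13.2 and 10.2 FPKM after IMQ. The groups overlapped, with the control range wider than the IMQ range. The log2 difference was 0.01 with a 95% confidence interval of -0.92 to 0.95, or 0.527-fold to 1.93-fold. *Lifr* was at 6.77, 9.91 and 5.02 FPKM in controls and 7.81, 9.27 and 7.91 FPKM after IMQ, a log2 difference of 0.19 with an interval of -0.46 to 0.84. *Il6st*, the shared gp130 chain, was at 41.3, 46.0 and 49.0 FPKM in controls and 38.2, 37.1 and 43.8 FPKM after IMQ, with an interval for its log2 difference of -0.45 to 0.15. These are not shown to be unchanged, but for *Il6st* the interval leaves out any rise above 1.11-fold.

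In SI, the receptor gene *Il6ra* was called higher in IMQ-treated mice, and 1 of 9 members tested was called, against 2.77% of 19965 genes called higher and 2.95% called in either direction. *Il6ra* had 262, 338 and 313 counts in control SI and 957 and 773 in IMQ SI. Its FPKM was 1.43, 1.85 and 1.41 against 4.49 and 4.10, with no overlap. *Il6ra* rose 2.83-fold, with a log2 fold change of 1.50 ± 0.17 (SE; adjusted p = 0.00368, edgeR). It was called in all 5 fits that left out 1 library, but in one fit of all 11 libraries its adjusted p was 0.0617. A gene annotated as Gm42809 overlaps *Il6ra* on the opposite strand over 281 bases, and the strand setting of the counting is not stated.

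*Il6* was near the limit of detection in SI, with 0, 3 and 0 counts in controls and 6 and 11 after IMQ, and did not enter the test because of the zeros. The ratio of the summed counts was 8.48 with an exact 95% interval of 2.45 to 45.1, which covers counting error only. *Osm* was also low, at 0.0878, 0.0763 and 0.0810 FPKM in controls and 0.143 and 0.107 FPKM after IMQ. Its log2 fold change was 0.66 ± 0.34 (SE; adjusted p = 0.525, edgeR).

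*Socs3* was at 5.23, 12.7 and 13.7 FPKM in control SI and 15.9 and 17.3 FPKM after IMQ. Control library 7 was the lowest, and the IMQ libraries were above every control. The log2 fold change was 0.80 ± 0.37 (SE; adjusted p = 0.464, edgeR). *Stat3* was at 29.5, 32.5 and 35.8 FPKM in controls and 32.4 and 34.5 FPKM after IMQ, and its log2 difference of 0.08 had an interval of -0.29 to 0.45. *Lif* was at 1.29, 1.49 and 1.46 FPKM in controls and 1.54 and 1.24 FPKM after IMQ, an interval for its log2 difference of -0.41 to 0.48. The intervals of *Il6st*, *Osmr*, *Lifr* and *Il11* in SI also included 0. With 3 against 2 libraries, normalized counts of 5 tested members did not overlap, with IMQ higher, which was true of 15.1% of all genes tested.

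**Figure D2:**
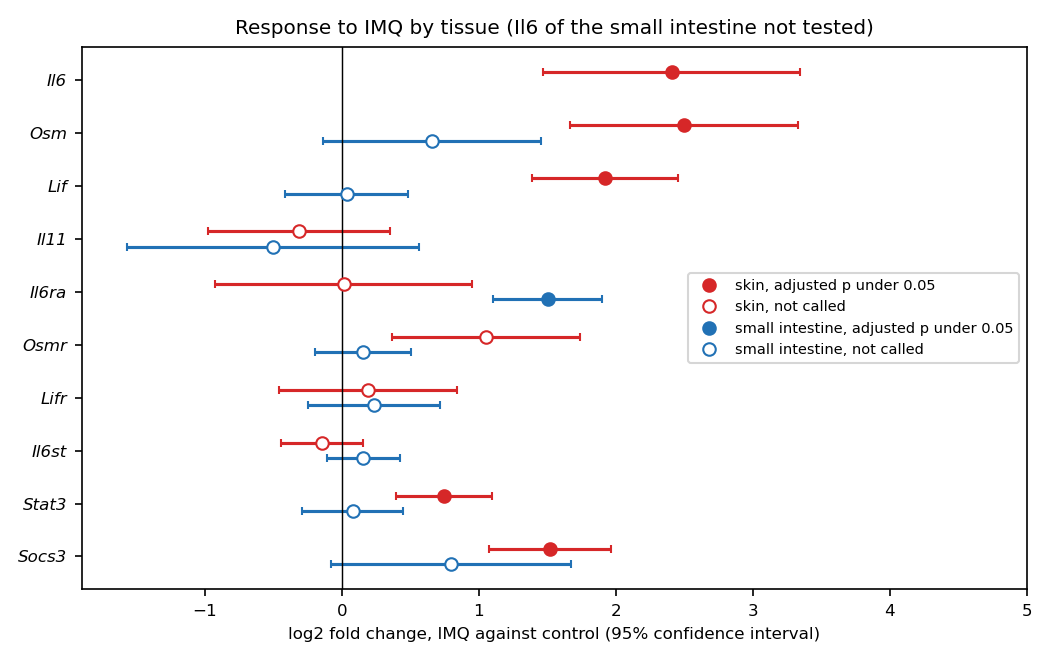
Log2 fold change of IMQ against control (horizontal axis) with 95% confidence intervals for each gene (vertical axis) in skin and SI, with filled points for an adjusted p under 0.05. The called points are *Il6*, *Osm*, *Lif*, *Stat3* and *Socs3* in skin and *Il6ra* in SI.

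A difference of response between the tissues was tested directly as the change in SI minus the change in skin. *Lif* was the member called among 9 tested, against 2.55% of 18108 genes in either direction and 0.856% with a smaller response in SI, with a log2 difference of -1.88 ± 0.30 (SE; adjusted p = 0.0104, edgeR). Its response was positive in skin and near 0 in SI. Without SI IMQ library 10 or 11 the adjusted p was 0.0523 and 0.0592. *Osm*, with a log2 difference of -1.84, missed the threshold (adjusted p = 0.0950, edgeR), as did *Il6ra* with 1.50 (adjusted p = 0.158, edgeR), *Stat3* with -0.65 (adjusted p = 0.173, edgeR) and *Osmr* with -0.88 (adjusted p = 0.263, edgeR). The larger response of *Il6ra* in SI than in skin is thus not established by the test of the difference, although its adjusted p was 0.00738 without skin control library 3. Similarly, *Osmr* reached 0.00623 and *Stat3* 0.04999 without skin control library 2.

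**Figure D3:**
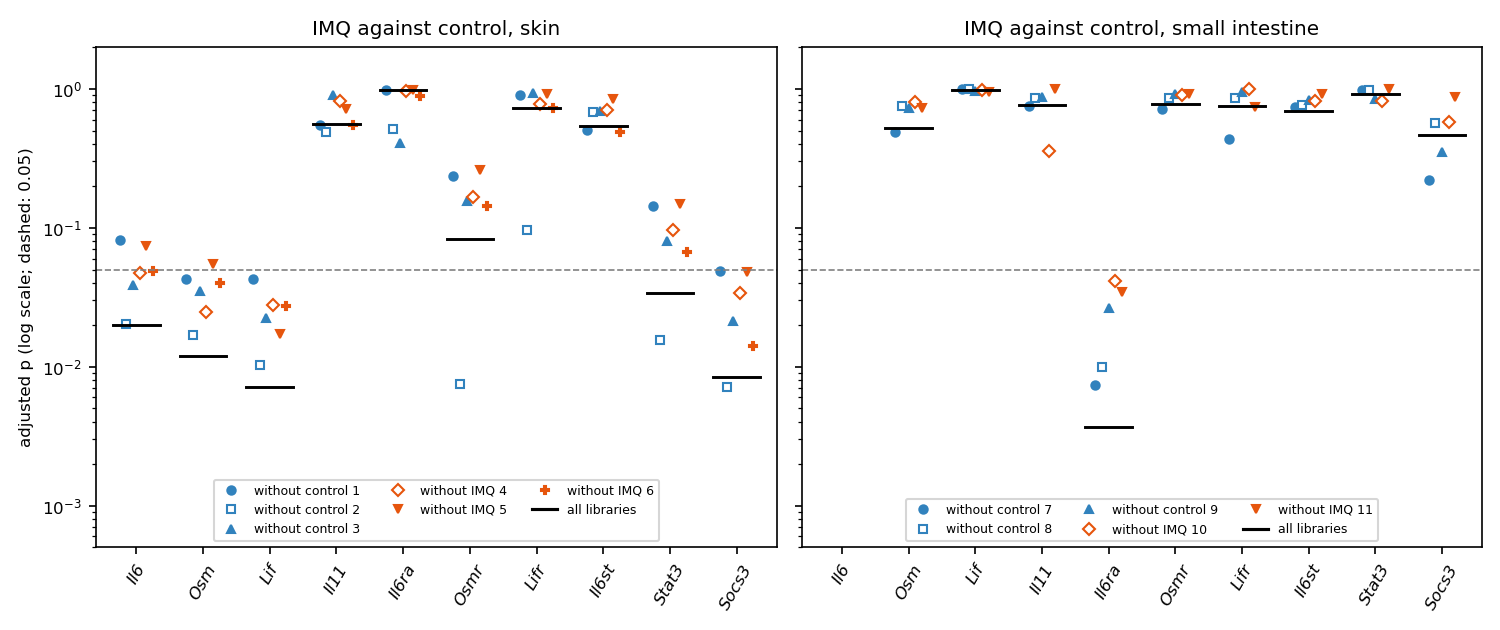
Adjusted p on a log axis (vertical axis) for each gene (horizontal axis) with all libraries (bar) and with 1 library left out (points), in skin and in SI, with a dashed line at 0.05. *Lif* and *Socs3* in skin and *Il6ra* in SI stay under the line in every fit, and *Stat3* in skin is under it in 1 of 6.

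Levels also differed between the tissues of control mice. The receptor chains were higher in skin than in SI. Of 9 members tested, 7 differed, 6 higher and 1 lower in skin, where 57% of all genes tested differed, 28.8% higher and 28.2% lower in skin, so such differences were common. Of all genes, 5210 were higher and 5111 lower in skin with edgeR, and 8330 and 3196 with limma on log2(FPKM + 0.01). *Il6ra* was 5.95-fold higher in skin, *Il6st* 3.37-fold, *Osmr* 3.10-fold and *Lifr* 2.95-fold. *Osm* was 3.03-fold higher and *Il11* 1.83-fold higher in skin, and *Lif* was lower there, by 1.85-fold. The call of *Il11* (adjusted p = 0.0379, edgeR) held in 6 of 11 fits that left out 1 library. Among 6 other ways of testing, the calls of *Lif* and *Il11* were each lost in 2, with adjusted p up to 0.0978 and 0.0816, and that of *Osm* in 1, at 0.0560. *Stat3* and *Socs3* were not called with edgeR and all libraries, and for *Stat3* the fold interval was 0.751 to 1.19. *Socs3* was called lower in skin in 1 of 11 fits that left out 1 library (adjusted p = 0.0109, edgeR). Its log2 difference ran from -0.76 to -0.13 over those fits. The directions for *Stat3* and *Socs3* turned with limma on log2(FPKM + 0.01), to log2 differences of 0.37 and 0.22, where the median of all genes was 0.45 instead of 0.01, and both limma fits called *Stat3* higher in skin, with adjusted p of 0.0148 and 0.0129.

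Per transcript length, *Il6st* and *Stat3* were the most abundant members in control skin, with mean FPKM of 45.4 and 42.1, followed by *Il6ra* with 12.5, *Socs3* with 11.3, *Osmr* with 9.29 and *Lifr* with 7.23. The ligands were all below 1, from 0.979 for *Lif* to 0.307 for *Il6*. In IMQ skin *Stat3* was first at 68.2, *Socs3* moved to 30.3 and the ligand means were 3.75 for *Lif*, 2.01 for *Osm* and 1.62 for *Il6*. In SI, *Stat3* was also the first, at 32.6 in controls, and *Il6st* was at 9.89. Ordered by mean FPKM, the levels of *Osmr*, *Il6*, *Osm*, *Stat3* and *Lifr* ran from IMQ skin to control skin to IMQ SI to control SI. The neighbors of *Osmr*, *Stat3* and *Lifr* at the lower end overlapped, and so did the skin groups of *Lifr*. For *Lif* the order was IMQ skin, control SI, IMQ SI and control skin, and the SI groups overlapped.

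In GRCm38, the ligand genes are *Il6* at chr5:30013114-30019975 (plus strand), *Osm* at chr11:4236785-4241026 (plus strand), *Lif* at chr11:4257568-4272514 (plus strand) and *Il11* at chr7:4772373-4782907 (minus strand). The receptor genes are *Il6ra* at chr3:89869324-89913196 (minus strand), *Osmr* at chr15:6813568-6874968 (minus strand), *Lifr* at chr15:7090610-7197489 (plus strand) and *Il6st* at chr13:112464070-112506860 (plus strand). *Stat3* at chr11:100886806-100939594 (minus strand) and *Socs3* at chr11:117966079-117970336 (minus strand) share chromosome 11 with *Osm* and *Lif*. *Osm* and *Lif* are neighbors on chromosome 11, with 16541 bases between them. *Osmr* and *Lifr* lie on chromosome 15 with 215641 bases between them. In skin, both of the neighboring ligands were called and neither of the neighboring receptors was. *Stat3* overlaps *Stat5a*, on the opposite strand, over 72 bases.

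The other genes of the pathway were read from 7 lists. Among other ligands and subunits of the IL-6 family in skin, *Ebi3*, a subunit of IL-27 and IL-35, rose 5.49-fold (adjusted p = 0.00799, edgeR) from 101, 158 and 122 counts to 721, 511 and 675. *Clcf1*, a ligand of the ciliary neurotrophic factor receptor, rose 2.64-fold and kept its call in 2 of 6 fits that left out 1 library (adjusted p up to 0.113, edgeR). Of 5 tested, 2 were called higher, next to 4.05% of all genes. In SI, 3 of 5 were called higher, next to 2.77% of all genes. *Il27*, the other subunit of IL-27, rose 9.98-fold from 18, 6 and 14 counts to 139 and 118, and *Ebi3* rose 7.62-fold. *Clcf1* rose 2.39-fold in SI and lost its call in all 5 fits that left out 1 library.

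Of the other receptors and shedding proteases, 0 of 6 tested in skin and 0 of 5 in SI were called with edgeR, with 3 and 1 at an unadjusted p under 0.05, and DESeq2 called 2 in skin and 0 in SI. DESeq2 called more genes in general, 3030 of 20512 in skin and 1206 of 19965 in SI. The count of 0 in skin depended on the controls. *Cntfr*, the ciliary neurotrophic factor receptor, had 3477, 207 and 5777 counts in control skin, lowest in library 2, and 824, 867 and 997 after IMQ, and its log2 difference of -1.56 (adjusted p = 0.342, edgeR) became -2.10 without control library 2 (adjusted p = 0.00586, edgeR). *Il31ra*, a receptor chain for IL-31, was called lower without control library 3 (adjusted p = 0.0396, edgeR). Both were chosen after their values were seen. Of the kinases, other STATs and adaptors, 0 of 11 were called in each tissue with edgeR and 0 with DESeq2, with 2 in skin and 1 in SI at an unadjusted p under 0.05. Of these, *Jak1* had 12141, 11786 and 10358 counts in control skin and 13127, 14046 and 12813 after IMQ, a log2 difference of 0.37 (adjusted p = 0.211, edgeR).

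Of 9 feedback regulators and phosphatases, 2 were called higher in each tissue, and they were the same genes. Of all genes tested, 4.05% were called higher in skin and 2.77% in SI. *Ptpn6*, which encodes the phosphatase SHP-1 of blood cells, rose 2.26-fold in skin and 3.64-fold in SI, and *Ptpn1*, which encodes PTP1B, rose 1.46-fold and 2.55-fold. *Ptpn6* counts in SI were 1988, 1453 and 1832 in controls and 7347 and 5615 after IMQ. In skin *Ptpn1* held its call in 1 and *Ptpn6* in 2 of 6 fits that left out 1 library, and in SI both held it in all 5. *Socs1*, *Socs2* and *Cish*, other SOCS family inhibitors, were not called in either tissue.

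Of 27 STAT3 target genes, 21 were tested in skin, and 7 were called higher and 0 lower, next to 4.05% of all genes. *Saa3*, an acute phase protein of macrophages and epithelium, rose 96.6-fold (adjusted p = 0.00432, edgeR), *Lcn2*, an antimicrobial protein that binds bacterial siderophores, rose 37.2-fold (adjusted p = 0.00218, edgeR) and *Bcl3*, a regulator of NF-kB, rose 3.94-fold (adjusted p = 0.000780, edgeR). *Saa3* counts were 76, 11 and 84 in control skin and 3562, 3715 and 7018 after IMQ, and those of *Lcn2* were 242, 161 and 227 against 3860, 6937 and 10097. The rest, *Cebpd*, *Hif1a*, *Il4ra* and *Myc*, rose by 0.75 to 1.83 on the log2 scale. The count ran from 5 to 11 with 1 library left out and from 5 to 10 in other ways of testing. The 11 without control library 2 were 10 higher, with *Icam1*, *Mcl1* and *Saa1* added, and 1 lower, the cyclin gene *Ccnd1* (log2 -1.04, adjusted p = 0.0319, edgeR). In that fit 1139 of all 20752 genes were called higher and 1382 lower. In SI, 3 of 23 were called higher, next to 2.77% of all genes. These were *Saa3* (32.5-fold, adjusted p = 0.0275, edgeR), *Icam1*, an adhesion molecule (3.23-fold, adjusted p = 0.00157, edgeR), and *Bcl6*, a transcriptional repressor (1.98-fold, adjusted p = 0.0195, edgeR). The count ran from 1 to 4 with 1 library left out and from 1 to 6 in other ways of testing, and *Bcl6* kept its call in 2 of 5 and 5 of 7 such fits. *Saa3* in IMQ SI had 179 and 935 counts, against 9, 9 and 38 in controls, and kept its call in 2 of 5 fits without 1 library. The median log2 fold change of the list was 0.75 in skin and 0.26 in SI.

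**Figure D4:**
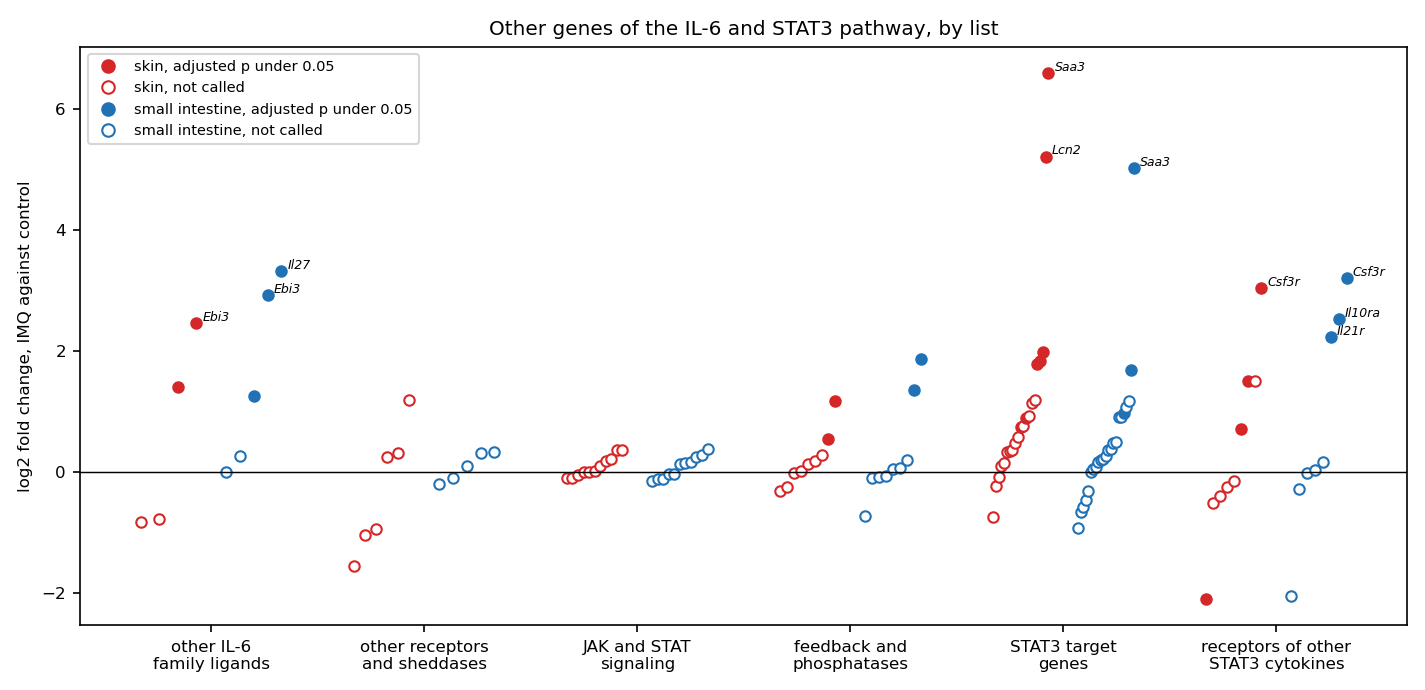
Log2 fold change of IMQ against control (vertical axis) for the tested genes reported from 6 lists (horizontal axis) in skin and SI, with filled points for an adjusted p under 0.05. *Saa3* is the highest point in each tissue, at 6.59 in skin and 5.02 in SI, and no gene of the JAK and STAT list is filled.

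Among receptors of other cytokines that activate STAT3, *Csf3r*, the granulocyte colony-stimulating factor receptor, rose 8.20-fold in skin and 9.23-fold in SI, and *Il10ra*, an IL-10 receptor chain, rose 2.85-fold and 5.77-fold. *Il21r* rose 4.68-fold in SI, a call kept in 2 of 5 fits that left out 1 library (adjusted p up to 0.214, edgeR). *Il21r* was not called in skin with all libraries (log2 1.51, adjusted p = 0.0553, edgeR). Without control library 2 it was called there, at a log2 difference of 1.71 (adjusted p = 0.0461, edgeR). The difference of its response between the tissues was not called (adjusted p = 0.594, edgeR). *Lepr*, the leptin receptor, fell by 2.096 on the log2 scale in skin, where control library 2 had 1469 counts against 4676 and 5392 in the other controls. This call was kept in 1 of 6 fits that left out 1 library, with adjusted p up to 0.128. Of 9 tested in skin 3 were called higher and 1 lower, where 4.05% of all genes were called higher and 2.69% lower. Of 8 in SI 3 were called higher, next to 2.77% of all genes. Of the other cytokines that signal through STAT3, 3 were tested in skin and 0 in SI, and 0 were called in skin with edgeR, although 2 had an unadjusted p under 0.05 and DESeq2 called 2. Of all 20512 genes tested in skin, DESeq2 called 3030. Without control library 2, *Il20* was called higher, with a log2 difference of 2.02 (adjusted p = 0.0179, edgeR) in place of 0.19 (adjusted p = 0.926, edgeR). It had 16, 105 and 13 counts in control skin, highest in library 2, and 52, 39 and 57 after IMQ. Without control library 3, *Il10* was called higher (adjusted p = 0.0493, edgeR). Some that the filter excluded are given by their counts, chosen after their values were seen. *Il24*, of the IL-20 subfamily, had 103, 138 and 34 counts in IMQ skin and 0 in all controls. Its mean normalized count in IMQ skin, 96.8 with an SD of 54.7, was 33.8-fold above a floor of 3 counts per library. *Csf3* had 56, 91 and 37 counts against 0, with a mean 22.6-fold above the same floor. *Il19* had 338, 955 and 510 counts against 7, 0 and 0. In SI, *Il10* had 99 and 99 counts against 0, 0 and 13.

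Some leukocyte markers, mainly of monocytes, macrophages and neutrophils, were called higher with IMQ in each tissue, and their part in the results above was not tested. In bulk tissue, fewer or more cells of a type and less or more RNA per cell cannot be told apart. Beside the counts of markers below, 4.05% of all genes were called higher and 2.69% lower in skin, and 2.77% higher in SI. In skin, 6 of 7 neutrophil markers were called higher, and their summed level rose from 15.1 to 15.6 FPKM in controls to 7036 to 8588 FPKM after IMQ, most of it from *S100a8* and *S100a9*, which keratinocytes also make in inflamed skin. Without those 2 genes the sum rose from 3.66 to 7.28 FPKM in controls to 31.9 to 39.9 FPKM after IMQ, and in SI from 6.60 to 8.01 FPKM to 12.5 to 14.2 FPKM. In SI, *Csf3r* alone was at 1.02, 0.807 and 0.633 FPKM in controls and 7.80 and 6.97 FPKM after IMQ. Its rise was near the size of the rise of the sum, so the sum in SI reflects mainly this gene. Monocyte and macrophage markers, of which 5 of 10 were called in each tissue, summed to 518 to 741 FPKM in control and 1166 to 1568 in IMQ skin, and to 269 to 384 in control and 886 to 957 in IMQ SI. Endothelial markers summed to 34.0 to 41.6 FPKM in control and 59.1 to 77.2 FPKM in IMQ skin, with 2 of 5 called, and to 18.6 to 27.2 FPKM in control and 47.9 to 57.7 FPKM in IMQ SI, with 1 of 5 called. T cell markers, of which 0 of 6 were called in each tissue, summed to 37.2 to 56.8 FPKM in control and 56.2 to 124 FPKM in IMQ skin, and to 31.1 to 42.6 in control and 25.4 to 27.1 in IMQ SI. Plasma cell markers, of which 0 of 4 were called in SI, summed to 582 to 877 FPKM in control and 441 to 496 FPKM in IMQ SI. Of mast cell markers, 3 of 5 were called higher in skin and 0 of 5 in SI. Of B cell markers, 1 of 2 tested was called higher in skin and 0 of 4 in SI. Of 4 hair follicle markers tested in skin 1 was called lower, with the sums given above. In SI, *Csf3r* and *Mmp8* were the 2 neutrophil markers called of 5 tested. *Csf3r* kept its call in all 5 fits that left out 1 library and *Mmp8* in 0, and *S100a9* (log2 2.24, adjusted p = 0.164), *Cxcr2* (-0.25) and *Retnlg* (-0.07) were not called. Also in SI, the 6 hair follicle markers were at 0 and *Krt5*, *Krt14* and *Ivl* were at 0 in the IMQ libraries. Of 4 eosinophil markers, 0 of 2 tested in skin and 0 of 3 tested in SI were called. Their sums were low and overlapped between the groups. They were 0.836 to 1.73 FPKM in control and 0.404 to 1.04 FPKM in IMQ skin. In SI they were 1.26 to 3.21 FPKM in controls and 1.51 to 2.09 FPKM after IMQ. Of these markers, *Epx*, which encodes eosinophil peroxidase, was at 0 in the IMQ libraries of both tissues. *Csf3r* is a marker of neutrophils as well as a member of the receptor list above.

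The genes whose pattern over the 11 libraries was most like that of *Socs3* and *Osm* were read from 15042 genes, by Pearson correlation of log2 normalized counts centered on the tissue mean. For *Socs3* they were *Pmaip1* (r = 0.95), *Rbm7* (r = 0.95), *BE692007* (r = 0.94) and *Lamtor3* (r = 0.94). For *Osm* they were *Il23r* (r = 0.97), *Hgf* (r = 0.96), *Lcn2* (r = 0.96) and *Adgrg5* (r = 0.96). The libraries share the contrast of IMQ against control, so these values are a description.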

How the data were processed

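RNA of 11 mouse libraries was sequenced from Illumina TruSeq Stranded mRNA libraries as 100-bp paired-end reads. Per the submitters' processing notes and the methods, the authors trimmed adapters, aligned reads to mm10 with HISAT2 2.1.0 and estimated abundance with StringTie 2.1.3b. The authors deposited 1 table with whole-number counts, not normalized. The deposited FPKM is scaled by the authors by transcript length and library size. The deposited TPM was computed by the authors and was not tested. The strand setting of the counting and the handling of reads shared by paralogs are not given in the sources used here.

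Here, genes were kept if no library of the fit had fewer than 1 count, normalized by relative log expression and tested with the quasi-likelihood test of edgeR 4.0.16 in R 4.3.3, per tissue, and p-values were adjusted by Benjamini-Hochberg. The standard error is the log2 fold change divided by the square root of F. The response of SI minus that of skin, and control skin against control SI, came from one model of all 11 libraries. Alternatives were TMM, DESeq2 1.42.0, filterByExpr, no filter, limma 3.58.1 on log2(FPKM + 0.01) and log2(FPKM + 1), each library left out, and one fit of all libraries. The scripts were tested on simulated data. The labels number the libraries without saying whether they came from separate mice, so p-values measure the spread between these libraries, which may be partly technical. The libraries held 44995414 to 58526384 counts. Intervals of counts cover counting error only.

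The 10 genes and the lists were chosen with earlier results of these data known. Besides the 10 genes, the text names up to 3 genes per pathway list and tissue with the largest absolute log2 fold change among those called whose normalized counts average 50 or more, and the 4 genes most like *Socs3* and *Osm*. The counts of other genes of the lists are given where stated. A gene that this rule names is not reported here. Promoter windows and positions are from RefSeq GRCm38.p6 and GENCODE annotation of GRCm38.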

Additional observations from a re-analysis of the deposited data

Results flagged for a closer look

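These 8 results met the criterion that the response to IMQ in SI differs from that in skin. The test was the interaction test of edgeR across 18108 genes, of which 462 (2.55%) were called in either direction. The 8 were sought among the 10 members, of which 9 were tested, and the pathway lists. Those lists hold 8, 6, 11, 9, 27, 8 and 9 genes, not all of which were tested. The log2 response in SI minus that in skin was -1.88 for *Lif* (adjusted p = 0.0104), -1.59 for *Bcl3* (adjusted p = 0.00483), -4.04 for *Lcn2* (adjusted p = 0.00318), -1.58 for *Hif1a* (adjusted p = 0.0114), -1.20 for *Myc* (adjusted p = 0.0214), 1.23 for *Bcl6* (adjusted p = 0.0490), 1.12 for *Icam1* (adjusted p = 0.0280) and 0.81 for *Ptpn1* (adjusted p = 0.0263). *Bcl3* and *Lcn2* held in all 11 fits that left out 1 library, *Hif1a* in 10, *Lif* in 9, *Myc* in 6, *Icam1* in 4, *Ptpn1* in 3 and *Bcl6* in 2. *Lcn2* rose 37.2-fold in skin, and *Icam1* and *Bcl6* were called in SI and not in skin with all libraries, although *Icam1* was called in skin without control library 2.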

How the results depend on the processing

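No paired analysis was run, because the libraries are numbered in sequence and the sources used here do not state which share a mouse. The comparisons between tissues therefore treated skin and SI libraries as independent, which was not tested. The number of genes called was 3030 with DESeq2 and 894 with limma on log2(FPKM + 1) in skin, 1206 with DESeq2 in SI, and 1281 with DESeq2 and 301 without a filter for the difference between tissues. Leaving out 1 library gave 258 to 2521 in skin, 294 to 801 in SI and 144 to 1072 for the difference. Members called were 2 to 6 in skin and 0 to 3 for the difference with 1 library left out, 0 in SI in one fit of all 11 libraries, and 2 for the difference with DESeq2 and with limma on log2(FPKM + 1).

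*Lif* and *Socs3* in skin kept their direction and their call in every alternative run. Log2 values changed sign in some settings for members that were not called, and the cause was not tested. *Il6ra* in skin was -0.021 in one fit of all 11 libraries and ran from -0.34 to 0.42 with 1 library left out, and *Lifr* in skin ran from -0.045 to 0.55. In SI, *Lif* was -0.028 and -0.015 with limma on log2(FPKM + 0.01) and log2(FPKM + 1), and with 1 library left out *Lif* ran from -0.052 to 0.12, *Lifr* from -0.012 to 0.44, *Il11* from -1.44 to 0.026 and *Stat3* from -0.028 to 0.19. For the difference between tissues *Lifr* was -0.060 and -0.089 with the 2 limma fits, and ran from -0.33 to 0.31, as *Il11* ran from -1.12 to 0.32. In control tissues *Stat3* was 0.37 and 0.36 and *Socs3* 0.22 and 0.19 with the 2 limma fits, and *Stat3* ran from -0.22 to 0.028.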
